A study of Mus musculus with 14 samples.

Results

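The genes described here are 10 microbial sensors, their signal carriers and NF-kB feedback genes of the mouse intestinal crypt: Tlr2, Tlr4, Tlr5, Nod1, Nod2, Myd88, Ripk2, Nfkbia, Tnfaip3 and Relb. They were chosen by gene symbol. The platform annotation paired 9 of the 10 with a single probe set each, of 25429 probe sets in all, and Ripk2 was not analysed here. Of these 9, 8 passed the filter on low values and were tested among 15873 genes, and Tlr4 did not pass.

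The samples were crypt cells of mice carrying the Lgr5-EGFP-IRES-CreERT2 cassette, in which EGFP and a tamoxifen-activated Cre recombinase are made where the stem cell gene Lgr5 is active. The Atg7KO mice also had floxed Atg7 on both alleles, Atg7(fl/fl), and the WT mice did not. Both genotypes carried Cre and received tamoxifen for 5 days, and the mice were killed 1 month later. Cells low in CD24 were sorted as EGFP high, the intestinal stem cells per the labels, or EGFP low, their transit amplifying progeny. Each genotype had 3 arrays of the EGFP high gate and 4 of the EGFP low gate, and cells were sorted from individual mice per the labels. The numbers in the sample titles are used here as names, as in WT-High-388. The labels used here give no age. Since Cre is driven from Lgr5, the floxed alleles can recombine in Lgr5-expressing cells, and other crypt cells carry the deletion where they descend from them.

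Toll-like receptors bind microbial products at the cell surface or in endosomes and signal through adaptors, of which Myd88 is the one most of them share. Nod1 and Nod2 lie in the cytosol, sense fragments of bacterial cell wall and signal through the kinase Ripk2. Both routes end at NF-kB, a family of transcription factors held back by inhibitors such as IkB alpha, the product of Nfkbia. NF-kB in turn raises transcription of Nfkbia and of Tnfaip3, which encodes the ubiquitin-editing protein A20, so both genes are widely read as feedback on the pathway. In the intestine this machinery lies under a dense bacterial load and is known to be restrained in epithelial cells.

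The promoters of Nfkbia, Tnfaip3 and Nod1 are printed because the first pair are feedback genes in which NF-kB sites are known, and Nod1 is the gene whose level separated the sorted gates. Each is a RefSeq window of 300 bases of build GRCm38.p6, from 250 bases before to 50 after the start site, on the minus strand and written 5′ to 3′. Capitals mark matches on either strand to the 10-letter kB consensus or to the shorter motif GGANTTTCC, which can overlap. The Nfkbia window is chr12:55492598-55492897, the Tnfaip3 window chr10:19015361-19015660 and the Nod1 window chr6:54972563-54972862.
Nfkbia: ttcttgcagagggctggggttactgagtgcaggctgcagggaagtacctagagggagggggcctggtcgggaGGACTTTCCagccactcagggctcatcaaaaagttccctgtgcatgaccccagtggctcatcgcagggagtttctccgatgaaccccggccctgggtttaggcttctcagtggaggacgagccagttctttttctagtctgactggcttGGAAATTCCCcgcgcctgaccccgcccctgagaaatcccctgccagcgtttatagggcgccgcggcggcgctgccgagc
Tnfaip3: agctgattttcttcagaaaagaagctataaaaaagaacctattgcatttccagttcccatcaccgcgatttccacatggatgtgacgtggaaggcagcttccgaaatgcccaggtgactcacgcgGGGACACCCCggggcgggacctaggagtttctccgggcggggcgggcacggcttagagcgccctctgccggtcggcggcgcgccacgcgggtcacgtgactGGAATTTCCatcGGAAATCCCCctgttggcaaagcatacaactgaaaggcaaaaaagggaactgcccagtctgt
Nod1: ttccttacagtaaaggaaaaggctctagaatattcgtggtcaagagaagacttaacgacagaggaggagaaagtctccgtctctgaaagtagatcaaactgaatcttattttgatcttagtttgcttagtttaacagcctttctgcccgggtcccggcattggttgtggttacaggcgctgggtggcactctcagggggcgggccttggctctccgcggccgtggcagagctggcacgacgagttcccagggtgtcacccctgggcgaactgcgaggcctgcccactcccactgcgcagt
The Nfkbia window held 1 match to the kB consensus and 2 to GGANTTTCC, one of them overlapping the consensus match from base -29. The Tnfaip3 window held 2 and 1, and the Nod1 window held none of either. Among all 32851 RefSeq promoter windows of this length, 4.51% held the kB consensus and 1.25% held GGANTTTCC. RefSeq windows were matched for 7 of the 10 genes, 9 windows in all. The Tlr2 window held 3 matches to the kB consensus, of which a pair overlap, and the Myd88 window held 1 match to GGANTTTCC. A match is a run of letters and does not show that a factor binds there.

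**Figure D1:**
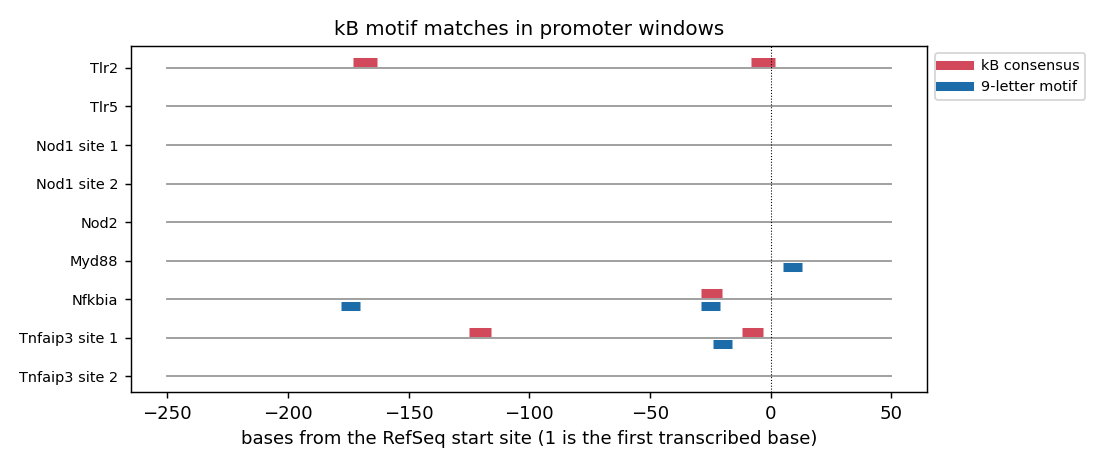
Matches to the kB consensus and to the 9-letter motif in the RefSeq promoter windows of 7 genes, drawn to scale in bases from the start site (x axis), with 1 row per window. The matches lie in the windows of Tlr2, Myd88, Nfkbia and the first Tnfaip3 site, and those of Tlr5, Nod1 and Nod2 hold none.

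All values below are log2 RMA values, and a difference is a difference of log2 means. The sorted cells had the level of Lgr5 that the gates imply, 9.02 ± 0.31 (SD, n = 3) in WT EGFP high against 5.50 ± 0.67 (SD, n = 4) in WT EGFP low cells. Atg7, needed to form autophagosomes, was 6.14 ± 0.23 against 6.79 ± 0.04 in Atg7KO and WT EGFP high cells (SD, n = 3 each) and 5.89 ± 0.20 against 6.91 ± 0.43 in EGFP low cells (SD, n = 4 each), with no overlap in either gate (limma adjusted p = 0.208 and 0.166). The epithelial marker Epcam had group means of 10.3 to 10.4. Cd24a, the gene of the surface protein that the gates held low, had group means of 10.1 to 10.4, and the Paneth marker Lyz1 had group means of 9.24 to 11.3. Of 18 leukocyte markers measured, 12 passed the filter, and the markers Ptprc, Cd3g, Cd79a, Itgax, Adgre1 and Cd53 did not. The mean of all 18 was 4.03 to 4.11 in Atg7KO EGFP high, 3.87 to 4.09 in WT EGFP high, 3.72 to 4.04 in Atg7KO EGFP low and 3.90 to 4.01 in WT EGFP low samples. None of the 12 was called in any comparison by limma. The number with an unadjusted p under 0.05 was 3 between the gates in Atg7KO, where 27% of all genes did, and 0 in the other comparisons of groups. The spread of all values on an array was narrowest on Atg7KO-High-356 and WT-Low-411 (SD 1.90 each). It ran from 1.90 to 1.98 in Atg7KO and from 1.99 to 2.06 in WT EGFP high samples.

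Nod1, the cytosolic sensor of a peptidoglycan fragment common in Gram-negative bacteria, was higher in the stem cell gate than in its progeny in both genotypes. In WT its level was 7.15, 6.71 and 6.40 in EGFP high samples WT-High-388, WT-High-411 and WT-High-412, against 5.92, 5.91, 6.04 and 5.88 in EGFP low samples WT-Low-341, WT-Low-407, WT-Low-409 and WT-Low-411. In Atg7KO it was 6.57, 6.78 and 7.06 in Atg7KO-High-356, Atg7KO-High-348 and Atg7KO-High-386, against 5.70, 5.91, 6.07 and 6.24 in Atg7KO-Low-356, Atg7KO-Low-353, Atg7KO-Low-387 and Atg7KO-Low-386. Values of other genes are given in the same order of samples. The lowest EGFP high value of either genotype, 6.40, lay above the highest EGFP low value, 6.24. Nod1 rose by 0.82 (SE 0.19, limma adjusted p = 0.0350), or 1.76-fold, in WT. It rose by 0.83 (SE 0.19, limma adjusted p = 0.0124), or 1.77-fold, in Atg7KO. These comparisons share no array, but they share the estimate of the spread.

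In WT 1 of the 8 genes tested was called, where 2.44% of all genes were called and 1.22% were called higher. In Atg7KO it was 1 of 8, where 10.9% of all genes were called and 4.48% were called higher. An unadjusted p under 0.05 was reached by 1 of 8 in WT and 2 of 8 in Atg7KO, where 14.8% and 27% of all genes did. The share in Atg7KO, 12.5%, is near that of all genes and is no result about the group as a whole. In WT the call was lost in each of 6 fits that left out a single array: adjusted p by limma was 0.0650 without WT-Low-341, 0.0683 without WT-Low-407, 0.0677 without WT-Low-409, 0.0613 without WT-Low-411, 0.147 without WT-High-388, where the difference was 0.62, and 0.113 without WT-High-411. In Atg7KO the gene was called without each of the 7 arrays in turn (limma adjusted p 0.0153 to 0.0450), and lost its call with the SD of the array as a covariate (0.81, limma adjusted p = 0.0795).

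The markers of crypt cell types moved between the gates too. Of 10 Lgr5 stem cell markers, limma called 10 higher in WT and 9 in Atg7KO EGFP high cells, and all 10 differences were positive in both genotypes. The mean of the 10 markers was 8.80 to 9.05 in the 6 EGFP high and 6.93 to 7.71 in the 8 EGFP low samples. Of 10 goblet markers 6 were called lower in WT and 10 in Atg7KO, and all 10 differences were negative in both genotypes. Of 9 enteroendocrine markers 5 and 6 were called lower, and all 9 differences were negative in both genotypes. Paneth markers had 0 of 8 called in WT and 4 of 8 lower in Atg7KO, and enterocyte markers 0 of 10 and 5 of 10. Over all genes 2.44% were called in WT and 10.9% in Atg7KO. For the difference of the Atg7KO effect between the gates, 0 Paneth and 0 enterocyte markers were called. Of 7 tuft markers tested 0 were called in WT, and in Atg7KO 1 was called higher and 1 lower. Of 6 stromal markers tested 0 were called in any comparison. The part of cell type shares in the Nod1 difference was not tested, and in sorted bulk samples fewer cells of a type and less RNA per cell cannot be told apart.

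Loss of Atg7 did not move Nod1 detectably in either gate. The difference was 0.052 (95% interval -0.37 to 0.48, limma adjusted p = 0.917) in EGFP high and 0.042 (95% interval -0.33 to 0.41, limma adjusted p = 0.976) in EGFP low cells, and the difference between these effects was 0.0097 (95% interval -0.55 to 0.57, limma adjusted p = 0.991). Ordered by mean, Nod1 was at 6.81 ± 0.25 in Atg7KO and 6.75 ± 0.38 in WT EGFP high cells (SD, n = 3 each), then 5.98 ± 0.23 in Atg7KO and 5.94 ± 0.07 in WT EGFP low cells (SD, n = 4 each). The neighbours within a gate did not differ beyond their spread, and the step lies between the gates.

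Nod2 senses muramyl dipeptide and is known in the crypt for its high level in Paneth cells and its activity in stem cells. Its level was low on these arrays, at or above the 40th percentile on 8 of 14. In WT EGFP high samples it was 4.01, 4.08 and 4.04, and in WT EGFP low samples 3.97, 3.59, 3.76 and 3.50. The WT groups did not overlap, and neither did those of Nod1, as happened upward for 9.97% of all genes in that comparison. The Nod2 difference of 0.34 (SE 0.17, limma adjusted p = 0.365) was not called. In Atg7KO EGFP high samples it was 4.40, 4.13 and 3.71, and in Atg7KO EGFP low samples 3.86, 3.77, 3.80 and 4.01. Those groups overlapped, because Atg7KO-High-386 at 3.71 was below all 4 EGFP low samples, and the difference was 0.22 (SE 0.17, limma adjusted p = 0.428). Only Nod1 was without overlap in Atg7KO, upward, where 10.8% of all genes were.

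The Toll-like receptors did not pass the test in any comparison. Tlr2, which with its partners binds bacterial lipoproteins, was at 5.60 to 6.25 in WT and 5.66 to 5.93 in Atg7KO EGFP high samples, and at 5.36 to 5.86 and 5.35 to 6.09 in EGFP low samples. All groups overlapped. Its largest difference was 0.34 (SE 0.20, limma adjusted p = 0.450), higher in EGFP high than in EGFP low cells of WT. Tlr5, the receptor of flagellin, was at 3.85 to 4.33 in WT and 4.09 to 4.42 in Atg7KO EGFP high samples. In EGFP low samples it was 4.12, 4.23, 4.25 and 4.08 in Atg7KO and 4.50, 4.26, 4.26 and 4.36 in WT. Each Atg7KO EGFP low sample lay below each WT one, as for 1.69% of all genes, by a narrow margin of 4.25 against 4.26. The difference was -0.18 (SE 0.13, limma adjusted p = 0.807) and was not called.

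Tlr4, the receptor that recognises lipopolysaccharide with its partner Ly96, was below the 40th percentile on each of the 14 arrays and was not tested in the main fit. Its values were 3.24 to 3.43 in WT and 3.58 to 3.66 in Atg7KO EGFP high samples, and 3.18 to 3.57 and 3.00 to 3.73 in EGFP low samples. With no filter the difference in EGFP high cells was 0.30 (SE 0.17, limma adjusted p = 0.433). At this signal a low level and no expression cannot be told apart.

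Myd88, the adaptor of most Toll-like receptors and of the interleukin-1 receptor family, had the smallest p among these genes for loss of Atg7. In EGFP high cells its level was 5.24, 5.29 and 5.62 in Atg7KO, against 5.71, 6.08 and 5.97 in WT. Each Atg7KO sample lay below each WT sample, as for 15.2% of all genes in that comparison. The difference was -0.54 (SE 0.18, limma adjusted p = 0.205) and was not called. In EGFP low cells the values were 5.59, 5.41, 5.94 and 6.02 in Atg7KO, against 5.67, 5.79, 5.67 and 5.92 in WT. Those groups overlapped widely, at a difference of -0.022 (95% interval -0.36 to 0.32). The difference of the Atg7KO effect between the gates was -0.51 (SE 0.24, unadjusted p = 0.0506 and limma adjusted p = 0.358), so the effect was not shown to depend on the gate. With array weights the difference in EGFP high cells was called, at -0.58 (limma adjusted p = 0.0492).

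Nfkbia gave a similar size with a wider spread. In EGFP high cells it was at 7.24, 7.66 and 7.46 in Atg7KO, against 7.97, 8.42 and 7.59 in WT. The groups overlapped, since Atg7KO-High-348 lay above WT-High-412. The difference was -0.54 (SE 0.24, limma adjusted p = 0.297) and was not called. It was -0.33 without WT-High-411, -0.35 after a further quantile normalization and -0.32 after cyclic loess. For EGFP low samples the values were 8.01, 7.45, 8.32 and 7.98 in Atg7KO and 8.15, 7.67, 7.86 and 8.22 in WT, a difference of -0.032 (SE 0.21). Within Atg7KO, Nfkbia was lower in EGFP high than in EGFP low cells by a log2 difference of -0.49 (SE 0.23, unadjusted p = 0.0496, limma adjusted p = 0.184), and within WT the difference was 0.022 (SE 0.23, limma adjusted p = 0.979).

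Paneth, goblet and enterocyte markers had negative median differences between Atg7KO and WT EGFP high cells, and enteroendocrine and tuft markers had medians near 0. The 8 Paneth markers had a median difference of -1.23, the 10 goblet markers of -0.93 and the 10 enterocyte markers of -0.52, against -0.032 over all genes. The 9 enteroendocrine markers had a median of -0.057 and the 7 tuft markers of 0.018. By limma 0 markers of these 5 lists were called. An unadjusted p under 0.05 was reached by 5 Paneth, 5 goblet and 2 enterocyte markers, all lower, by 0 enteroendocrine markers and by 2 tuft markers, both higher. Over all genes 15.9% reached it. The mean level in Atg7KO against WT samples was 8.14 to 9.52 against 9.66 to 10.6 for Paneth, 7.73 to 9.37 against 9.20 to 9.62 for goblet and 7.91 to 8.06 against 7.95 to 9.27 for enterocyte markers. The 12 leukocyte markers had a median difference of 0.011. Paneth markers also had a negative median for Atg7 loss in the EGFP low gate, -0.85, with all 8 differences negative. By limma 0 of these 8 were called, and 1 had an unadjusted p under 0.05. That gate had medians of -0.16 for goblet, 0.055 for enterocyte, -0.056 for enteroendocrine and -0.056 for tuft markers, against 0.0019 over all genes. There Myd88 and Nfkbia differed by -0.022 and -0.032. The part of these cell types, and of the narrower array spread given above, in the Myd88 and Nfkbia differences was not tested.

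Tnfaip3, whose product A20 shuts off NF-kB signalling upstream of the IkB kinase, was at 4.87, 5.17 and 4.75 in Atg7KO and 5.12, 5.33 and 5.19 in WT EGFP high samples. These overlapped, and the difference was -0.28 (SE 0.18, limma adjusted p = 0.452). Among EGFP low samples it was at 4.84 to 5.52 in Atg7KO and 4.82 to 5.18 in WT, at a difference of 0.13 (SE 0.16, limma adjusted p = 0.895). Relb, an NF-kB subunit of the noncanonical route, was at 5.35 to 5.84 in Atg7KO and 5.48 to 6.03 in WT EGFP high samples. In EGFP low samples it was at 5.44, 5.35, 4.80 and 5.41 in Atg7KO and 5.53, 4.95, 5.60 and 5.50 in WT, with a single low sample in each genotype. Its differences ran from -0.18 to 0.30 over the 4 comparisons of groups, and none was called.

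**Figure D2:**
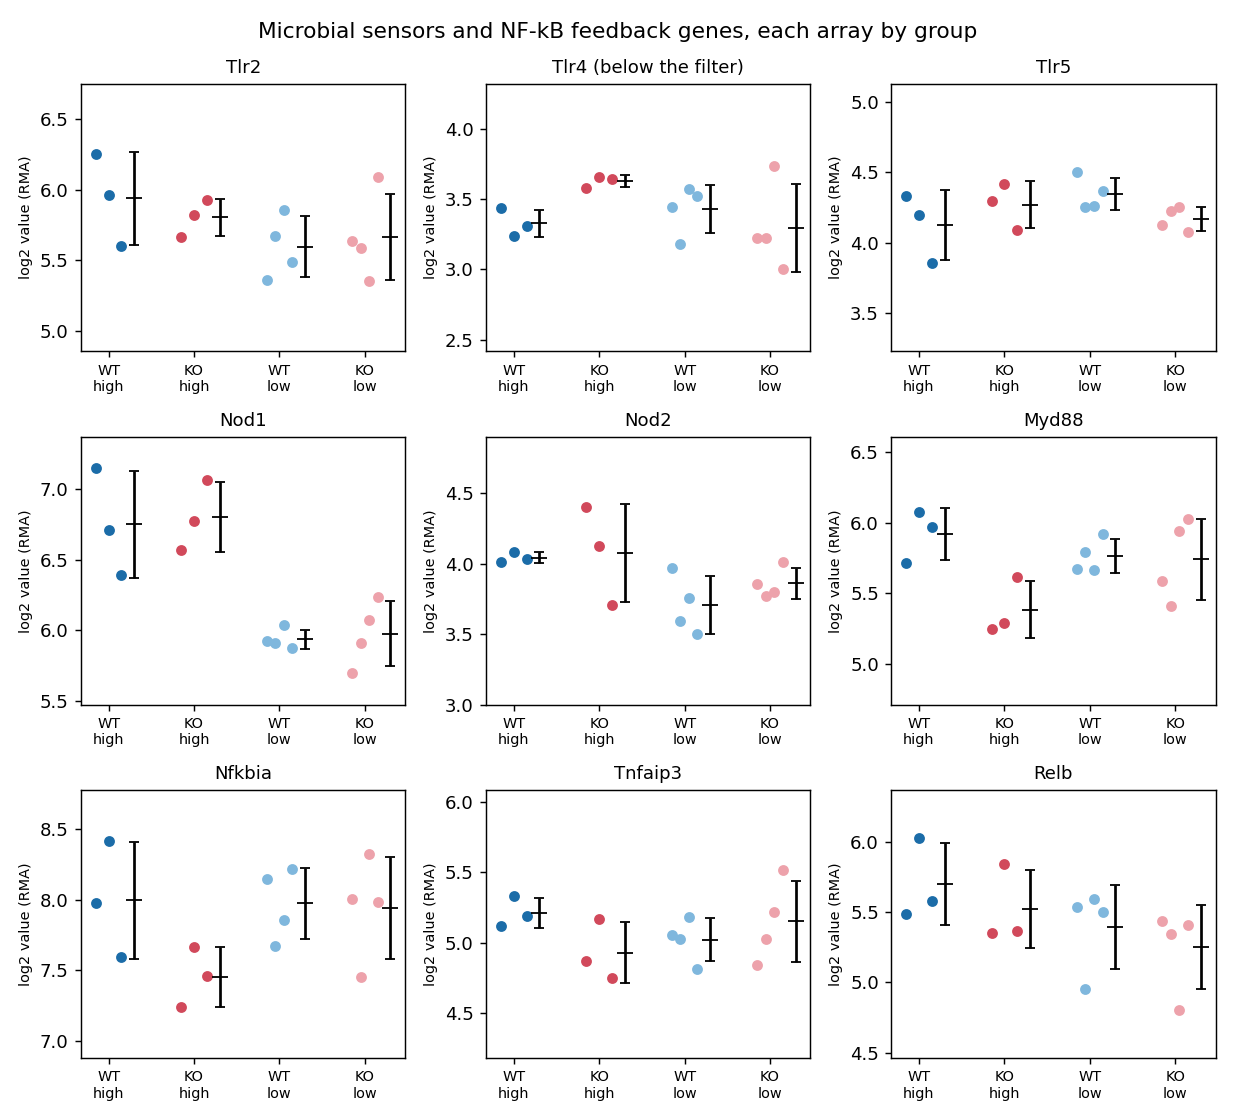
Log2 RMA values (y axis, of equal span in each panel) of 9 genes on each array, grouped by genotype and gate (x axis), with the mean and SD of each group beside its points. Nod1 in EGFP high cells lies at 6.40 to 7.15, above all EGFP low samples, and Myd88 in Atg7KO EGFP high cells lies below WT.

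Loss of Atg7 thus gave no call among these genes. In EGFP high cells limma called 0 of 8, where 0.0126% of all genes were called, and 2 of 8, Myd88 and Nfkbia, had an unadjusted p under 0.05 with lower values, where 9.88% of all genes did (15.9% in either direction). Of the 8 differences 5 were negative, where 53.8% of all genes were, and the median was -0.16, against -0.032 over all genes tested. In EGFP low cells it called 0 of 8, where 0.0063% were called over all genes, and 0 of 8 had an unadjusted p under 0.05, where 7.26% did. The median there was 0.010, and 4 of 8 differences were negative, where 49.7% of all genes were. For the difference of the effect between the gates limma called 0 of 8, where 0.0063% were called, and 0 of 8 had an unadjusted p under 0.05, where 14% did. The 95% interval of widest span for Atg7 loss in EGFP high cells was that of Nfkbia, -1.06 to -0.021.

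**Figure D3:**
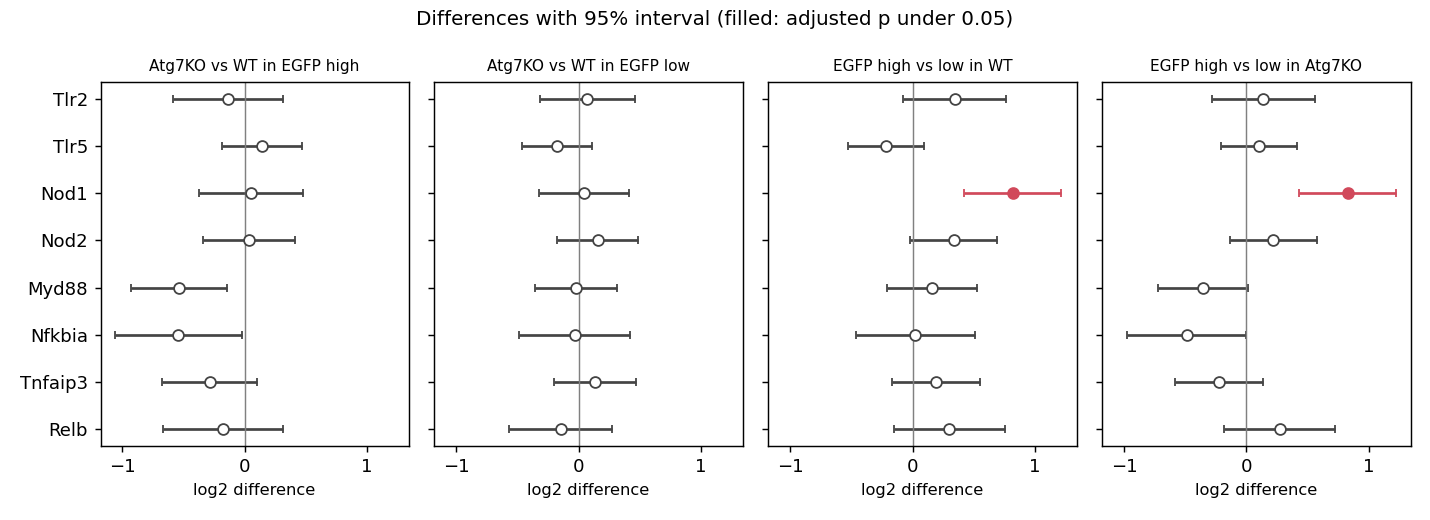
Log2 differences (x axis) with 95% intervals from the limma fit for the 8 genes tested (y axis), in 4 comparisons. Filled red points passed an adjusted p of 0.05, which in these panels is Nod1 between the gates, at 0.82 in WT and 0.83 in Atg7KO.

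The other genes of the pathway were read from 5 lists. Among other microbial sensors and their co-receptors, 10 of 16 passed the filter, and the receptors Tlr6, Tlr7, Tlr8, Tlr13, Cd36 and Clec7a did not. None of the 10 was called in any comparison by limma. Pglyrp1, a secreted peptidoglycan binding protein, differed by -0.48 (SE 0.20, limma adjusted p = 0.277) between Atg7KO and WT in EGFP high cells, and Tlr9, the endosomal DNA sensor, by 0.38 (SE 0.18, limma adjusted p = 0.324). Cd14, which hands lipopolysaccharide to the Tlr4 complex, differed by 0.43 (SE 0.18, limma adjusted p = 0.261) between EGFP high and low cells of WT. Tlr3, the endosomal receptor of double-stranded RNA, differed by -0.40 (SE 0.20, limma adjusted p = 0.707) for Atg7 loss in EGFP low cells. The number with an unadjusted p under 0.05 was 1 for Atg7 loss in the EGFP high gate and 0 in the EGFP low gate, where 15.9% and 7.26% of all genes did. Between the gates it was 1 in WT and 2 in Atg7KO, where 14.8% and 27% did. For the difference of the effect it was 0, where 14% did.

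All 26 adaptors and kinases measured were tested, and limma called 1 lower in EGFP high than in EGFP low cells of Atg7KO. Of all genes 10.9% were called there, and 0 of the 26 were called in the other comparisons. The called gene was Ticam1, which encodes TRIF, the adaptor of Tlr3 and of endosomal Tlr4. Its level was 5.94 ± 0.30 (SD, n = 3) in EGFP high and 7.11 ± 0.56 (SD, n = 4) in EGFP low cells of Atg7KO, a difference of -1.17 (SE 0.26, limma adjusted p = 0.0107). In WT the same difference was -0.20 (SE 0.26, limma adjusted p = 0.785). The difference between those, tested as the difference of the Atg7KO effect between the gates, was -0.98 (SE 0.36, limma adjusted p = 0.281) and was not called. Rnf31, a subunit of the linear ubiquitin ligase, differed by -0.69 (SE 0.28, limma adjusted p = 0.267) for Atg7 loss in EGFP high cells, and Tab3, a partner of the kinase TAK1, by -0.49 (SE 0.14, limma adjusted p = 0.495) in EGFP low cells. Between the gates in WT, Peli1, a ubiquitin ligase of this pathway, differed by -0.60 and the kinase Irak2 by 0.39 (limma adjusted p = 0.266 and 0.275). The number with an unadjusted p under 0.05 was 1, 1, 2, 6 and 2 of 26 for Atg7 loss in EGFP high cells, Atg7 loss in EGFP low cells, the gates in WT, the gates in Atg7KO and the difference of the effect, where 15.9%, 7.26%, 14.8%, 27% and 14% of all genes did.

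Of the other NF-kB subunits 3 were measured, Rela, Rel and Nfkb2, and 0 were called in the 5 comparisons by limma. Rela, the main activating subunit, was at 6.71 to 7.46 in Atg7KO and 7.47 to 7.64 in WT EGFP high samples, at a difference of -0.57 (SE 0.23, limma adjusted p = 0.265). Nfkb2, the noncanonical partner of Relb, had a lower mean in EGFP high than in EGFP low cells of both genotypes, and neither difference was called. The log2 differences were -0.60 in WT (SE 0.25, limma adjusted p = 0.272) and -0.79 in Atg7KO (SE 0.25, limma adjusted p = 0.0570). An unadjusted p under 0.05 was reached by 1 of 3 for Atg7 loss in EGFP high cells, where 15.9% of all genes did. Between the gates 1 of 3 reached it in each genotype, where 14.8% of all genes did in WT and 27% in Atg7KO.

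Inhibitors and feedback genes other than Nfkbia and Tnfaip3 were tested for 19 of 21. Between the gates 0 of 19 were called in WT, where 2.44% of all genes were, and 3 of 19 were called lower in Atg7KO EGFP high cells, where 10.9% of all genes were called. An unadjusted p under 0.05 was reached by 1 higher and 3 lower in WT, and by 3 higher and 5 lower in Atg7KO. Over all genes 14.8% and 27% reached it. For the difference of the effect 3 reached it, all lower, where 14% of all genes did. With so few genes these counts are no result about the list. Tollip, an inhibitor of interleukin-1 receptor and Toll-like receptor signalling, fell by 0.93 (SE 0.18, limma adjusted p = 0.00491). Bcl3, a nuclear IkB protein, fell by 0.93 (SE 0.28, limma adjusted p = 0.0453), and Itch, a ubiquitin ligase that works with A20, fell by 0.62 (SE 0.19, limma adjusted p = 0.0475). In WT the same differences were 0.086 for Tollip, 0.26 for Bcl3 and -0.51 for Itch, none called. Tollip was at 5.67 to 6.16 in Atg7KO and 6.34 to 6.68 in WT EGFP high samples, and at 6.68 to 7.03 and 6.06 to 6.66 in EGFP low samples. So each Atg7KO sample was below WT in the EGFP high gate, as for 15.2% of all genes. In the EGFP low gate Atg7KO had the higher mean, 6.91 ± 0.16 against 6.44 ± 0.27 in WT (SD, n = 4 each). The Atg7KO effect on Tollip was -0.55 (SE 0.19, limma adjusted p = 0.208) in EGFP high and 0.47 (SE 0.16, limma adjusted p = 0.593) in EGFP low cells. The difference of -1.02 between these effects (SE 0.25, unadjusted p = 0.00108, limma adjusted p = 0.197) was not called.

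In EGFP high cells 15 of the 19 differences for Atg7 loss were negative, where 53.8% of all genes were. The median was -0.28 against -0.032 over all genes tested. By limma 0 were called, and 5 had an unadjusted p under 0.05, all lower, where 9.88% of all genes did. Nfkbib, which encodes IkB beta, had the smallest p at -0.58 (SE 0.19, limma adjusted p = 0.197). The part of the cell types and of the array spread given above in these differences was not tested. In EGFP low cells 0 were called and 2 had an unadjusted p under 0.05, where 7.26% of all genes did. Tnip1, an A20 binding protein, was at -0.40 there (SE 0.15, limma adjusted p = 0.624). Between the gates in WT the smallest p were those of Irak3, an inactive kinase that restrains Toll-like receptor signalling, at -0.65 (SE 0.20, limma adjusted p = 0.107), and of Tnip2, another A20 binding protein, at 0.59 (SE 0.21, limma adjusted p = 0.172).

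Of 30 genes listed here as NF-kB targets, 21 were tested. Whether NF-kB drives the listed genes in these cells was not tested. The cytokine and chemokine genes Cxcl2, Cxcl5, Il1b, Il6, Il23a and Csf2 and the serum amyloid genes Saa1, Saa2 and Saa3 were below the filter. Between the gates of Atg7KO 3 of 21 were called lower and 1 higher, where 10.9% of all genes were called. In WT 0 of 21 were called, where 2.44% were. With so few genes these counts are no result about the list. Reg3g, an antibacterial lectin, fell by 1.65 (SE 0.35, limma adjusted p = 0.00911) and Reg3b by 0.93 (SE 0.28, limma adjusted p = 0.0468). Il18, the inflammasome cytokine of epithelial cells, fell by 1.20 (SE 0.32, limma adjusted p = 0.0269). Sdc4, a heparan sulfate proteoglycan, rose by 0.59 (SE 0.18, limma adjusted p = 0.0499), and in WT its difference was 0.63 (SE 0.18, limma adjusted p = 0.0887). In WT the differences of Reg3g, Reg3b and Il18 were also negative, at -0.62, -0.43 and -0.76 (limma adjusted p = 0.446, 0.520 and 0.268). The difference of the Atg7KO effect between the gates was not called for any of these 3 (limma adjusted p = 0.365, 0.570 and 0.673). Of the 21 genes 4 had an unadjusted p under 0.05 in WT, 3 higher and 1 lower, where 14.8% of all genes did in either direction. In Atg7KO 1 higher and 4 lower genes did, where 27% of all genes did. For the difference of the effect 0 did, where 14% of all genes did. Reg3g, Reg3b and Il18 are also made by differentiated crypt cells, whose markers were lower in EGFP high cells as given above, and the part of those cells in the differences was not tested. For Atg7 loss 0 of 21 were called in either gate by limma. In EGFP high and low cells 1 and 0 had an unadjusted p under 0.05, where 15.9% and 7.26% of all genes did. Sod2, the mitochondrial superoxide dismutase, was the one in EGFP high cells, at -0.58 (SE 0.23, limma adjusted p = 0.245). The chemokine Cxcl1 differed by 0.39 (SE 0.20, limma adjusted p = 0.354) there, and Cxcl10 by 0.55 (SE 0.21, limma adjusted p = 0.206) between the gates in WT.

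**Figure D4:**
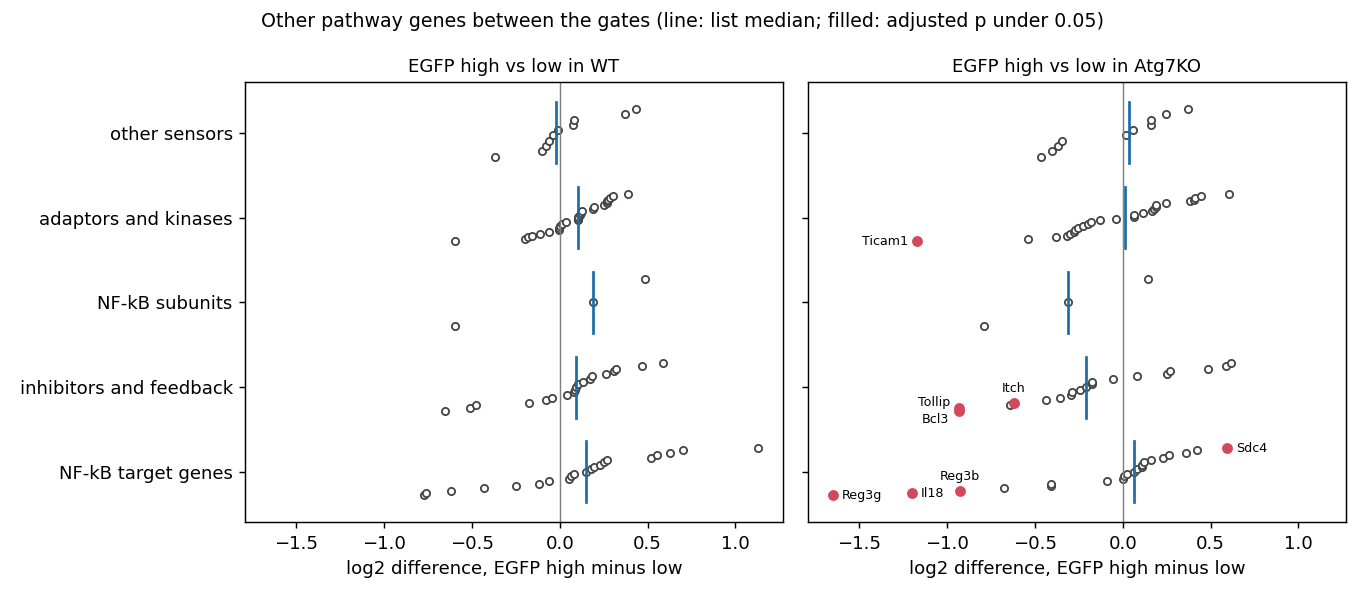
Log2 differences between EGFP high and low cells (x axis) of the tested genes of 5 pathway lists (rows), in WT (left) and Atg7KO (right), with 1 point per gene and a line at each list's median. The named red points passed an adjusted p of 0.05, which was reached in Atg7KO by Ticam1, Tollip, Bcl3, Itch, Reg3g, Il18, Reg3b and Sdc4. None of these 8 was called for a difference between the genotypes, and 10.9% of all genes were called in Atg7KO against 2.44% in WT.

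Across the 14 arrays the genes followed different patterns. For each gene the 3 others of most similar profile were taken among 13969 named genes by Pearson's r of log2 values, as a description that holds the gate difference and array quality in common. Those most like Nod1 were Cd44, an adhesion receptor and Wnt target of the crypt base (r = 0.94), D17H6S56E-5 (r = 0.92) and Tmem213 (r = 0.92). With the group means taken out, the r of Cd44 with Nod1 was 0.72. Cd44 was higher in EGFP high cells too, by 1.31 (SE 0.24, limma adjusted p = 0.0120) in WT and 1.11 (SE 0.24, limma adjusted p = 0.0103) in Atg7KO. Those most like Nod2 were Necap2 (r = 0.93), Slc19a1 (r = 0.91) and Chst12 (r = 0.86).

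For Myd88 they were Urb2 (r = 0.87), Pkp2 (r = 0.85) and Xaf1 (r = 0.85), and for Nfkbia the BMP antagonist Nog, Ddx52 and Rbm42 (r = 0.81 to 0.82). Tlr2 went with Tmem62, Dab2ip and Dnajc28 (r = 0.79 to 0.82), and Tlr5 with Htr5a, Lsmem1 and Serpinb1c (r = 0.81 to 0.91). Tnfaip3 went with Tmem79, Usp33 and Pfkm (r = 0.84 to 0.86), and Relb with Ifrd1, Bcor and Armc5 (r = 0.80 to 0.88). Among the 9 genes themselves the highest r was 0.69 for Myd88 with Nfkbia and 0.68 for Tlr2 with Nod1. With the group means taken out these were 0.48 and 0.70. Nfkbia and Tnfaip3, both feedback genes, had r = 0.38, and Nod1 and Nod2 had r = 0.47, or -0.26 with the group means taken out.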

How the data were processed

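Sorted crypt cells were profiled on 14 Affymetrix Mouse Gene 2.0 ST arrays from 1 ng of amplified total RNA each. The deposited values are log2, made by the authors with RMA in Affymetrix Expression Console (named in the submitters' processing notes, with no version). RMA can narrow large differences. Arrays give no read depth, so their number limits the precision.

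A single symbol was given for 24675 of 25429 probe sets, and 754 were left out. Genes reaching the 40th percentile on 3 or more arrays were kept, which left 15873. A limma 3.58.1 fit in R 4.3.3 of 4 group means to all 14 arrays (residual df 10, prior df 4.54) gave differences, SE, 95% intervals and two-sided p-values. The p-values set each difference against the spread of samples within groups, estimated over the 4 groups together, and take the arrays as independent. Calls are at a Benjamini-Hochberg adjusted p under 0.05 over the 15873 genes. The method was tested on simulated data with independent normal noise at the spread of each gene. For Atg7 loss in EGFP high cells 98 genes were changed by 1 and 102 by 2. For Atg7 loss a simulated log2 change of 1 was called for 54.1% of changed genes in EGFP high and 66.0% in EGFP low cells. Between the gates it was called for 66.3% in WT and 70% in Atg7KO, and for the difference of the effect for 29.0%. In the data the Paneth marker Ang4 differed by -2.30 for Atg7 loss in EGFP high cells and was not called (limma adjusted p = 0.0986). The simulated shares thus need not hold for these data, and a gene that was not called is not shown to be unchanged.

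The members and lists were chosen with earlier results of these data known. The 5 pathway lists hold sensors, adaptors and kinases, subunits, inhibitors and targets, and 8 marker lists hold cell types. The rule for names takes every member, up to 4 called genes per pathway list and comparison or else the 2 of smallest p (not all of these are printed), the 3 most similar profiles, Atg7 and Lgr5. Cd24a, Epcam and Lyz1 were added as checks of the gates after their values were seen. Genes without a paired probe set, such as Ripk2, Ripk1 and Nfkb1, were not analysed here. Alternatives changed the groups fitted, the prior, normalization, filters, array weights, array spread, a block on the title number, and left out single arrays.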

Additional observations from a re-analysis of the deposited data

Results flagged for a closer look

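In EGFP low cells 2 groups of 4 samples, among 18 examined, had a value far from the others by Dixon's test at the 95% level, both for Relb, and chance flags about 1 in 20 groups. Relb was at 4.80 in Atg7KO-Low-387, where the nearest other sample of its group was at 5.35, and at 4.95 in WT-Low-407, where the nearest was at 5.50. Relb differed between Atg7KO and WT EGFP low cells by -0.15 over all samples, by 0.00215 without Atg7KO-Low-387 and by -0.29 without WT-Low-407.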

How the results depend on the processing

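Of 753 recomputed values of the 40 member differences, 691 kept direction and call, and 50 changed sign, none of them called and none above 0.19 in size. The count of called members between the gates in WT was 1, and it was 0 with only the groups of the comparison in the fit, with cyclic loess, with the array SD as a covariate and without both arrays of the narrowest spread (limma adjusted p of Nod1 0.0549, 0.0514, 0.0543 and 0.0598, over a range of 0.0233 to 0.147 in all alternatives). Leaving out single arrays gave counts of 0 to 1 there. In Atg7KO the count was 0 with the array SD as a covariate. For Atg7 loss in EGFP high cells it was 1 with array weights, from Myd88 (limma adjusted p = 0.0492, against 0.128 to 0.802 otherwise). The causes were not tested. Median centring moved the median of all genes from -0.032 to -0.14 for Atg7 loss in EGFP high cells and to -0.16 for the difference of the effect. Some title numbers occur in both gates of a genotype. Deviations of the 3 same-numbered pairs correlated at 0.115, 0.182 and -0.040. Other pairs across the gates had a median of -0.031 and ran from -0.17 to 0.16. Of the 6 samples with a shared number, 4 correlated best with their own number. The labels do not say whether a number is a mouse, and the main fit did not use the numbers as pairs. Whether same-numbered samples share a mouse was not tested. With the replicate block no count of called members changed, and Nod1 differed by 0.82 in WT and 0.83 in Atg7KO (limma adjusted p = 0.0297 and 0.00967).

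Sign changes were small. With quantile normalization again and with cyclic loess, Nod2 for Atg7 loss in EGFP high cells was -0.078 and -0.091, Nfkbia between the gates in WT -0.046 and -0.082, and Tlr5 between the gates in Atg7KO -0.0073 and -0.014. With median centring Nod1 and Nod2 for Atg7 loss in EGFP high cells were -0.051 and -0.068, and Nod1 for the difference of the effect was -0.11. With array weights Tlr2 for Atg7 loss in EGFP high cells was 0.0068 and Nfkbia between the gates in WT -0.055. With the array SD as a covariate Nfkbia for Atg7 loss in EGFP low cells was 0.010, Tlr5 between the gates in Atg7KO -0.0088, and for the difference of the effect Nod1 was -0.017 and Relb 0.0046. Without both narrowest arrays Nod2 for Atg7 loss in EGFP high cells was -0.12, Myd88 and Nfkbia in EGFP low cells 0.031 and 0.049, and Relb for the difference of the effect 0.015. Over single arrays left out, Atg7 loss in EGFP high cells gave -0.30 to 0.023 for Tlr2, -0.13 to 0.25 for Nod1 and -0.12 to 0.22 for Nod2. In EGFP low cells it gave -0.070 to 0.18 for Tlr2, -0.044 to 0.14 for Nod1, -0.12 to 0.087 for Myd88, -0.16 to 0.13 for Nfkbia and -0.29 to 0.00215 for Relb. The difference of the effect ran from -0.17 to 0.21 for Nod1, -0.28 to 0.066 for Nod2 and -0.19 to 0.13 for Relb, and Nfkbia between the gates in WT from -0.19 to 0.22.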
